A study of Danio rerio with 8 samples.

Results

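Solute carriers are membrane proteins that move amino acids, sugars, ions, metals, nucleotides and metabolites across the plasma membrane and the membranes of organelles. They were followed here in the ovary of zebrafish fed TCDD, a chlorinated dioxin that binds the aryl hydrocarbon receptor. The members were all probe sets with 1 annotated gene symbol that begins with slc and a digit, 158 of 15502 probe sets (137 genes), among them 29 for the slc25 family of mitochondrial carriers. Of these, 2 carry the name without belonging to a carrier family: slc4a1ap encodes an adaptor protein and slc7a6os a gene opposite to slc7a6. A further 5 probe sets with several symbols, 1 of them an slc name, were not used.

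The pools came from adult AB females of 6 to 8 months, given feed with 0 (acetone alone), 10, 40 or 100 ppb (ng per g) TCDD for 15 days. Each pool joined equal RNA amounts of 5 whole ovaries, and each of the 4 pools was read on 2 arrays (replicates 1 and 2). A whole ovary holds oocytes of all stages with follicle, stromal, vascular and blood cells, and the replicates are arrays, not fish, so every SE and p below measures the spread between arrays of a pool. Levels are log2(signal + 16), quantile normalised over the 8 arrays. Brightness depends on the probes, so levels of different probe sets are not transcript amounts. Differences are the exposed pool minus the control pool on this scale, a scale that compresses differences of dim probe sets. In bulk tissue, fewer cells of a type and less RNA per cell cannot be told apart.

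The 2% trimmed mean signal per array ranged from 96.1 to 212 before normalization. The 10 ppb arrays agreed least with each other (r = 0.981 over 15502 probe sets, against 0.991 to 0.992 in the other pools). Of 10 ovary marker genes listed, 6 were measured and all 6 read above the tag controls (probe sets that match no zebrafish transcript) on both control arrays, with zar1 at 11.77 and zp3b at 11.68. Most markers of liver rose in the 10 ppb pool: 13 of 21 tested were called higher there and 0 lower (median 3.20). Over all tested probe sets 1.11% were called at 10 ppb. The liver markers not called ran from -0.39 (rbp4) over 0.32 (fabp10a) to 1.95 (ambp). The summed deposited signal of the measured liver markers, not normalised, was 3780 to 20300 over the 10 ppb arrays, against 840 to 1720 over the control arrays.

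In control ovary 115 of the 158 members (72.8%) read above the tag controls on both arrays, against 66.9% of all probe sets. For the mitochondrial carriers it was 26 of 29 (89.7%), and for the other families 89 of 129 (69.0%). The median level in the control pool was 6.38 for slc25 and 5.45 for the others. Over all 8 arrays, 101 members were above the tag controls on every array and 14 on none.

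The families differed in how many of their members were detected. Among families of zinc carriers, all 7 probe sets of slc30, which moves zinc out of the cytosol, and 7 of 8 of slc39, which moves it in, were above the tag controls on both control arrays. So were 8 of 9 of slc35, the family that includes the nucleotide sugar carriers of the Golgi and endoplasmic reticulum, and all 7 of slc38, the sodium-coupled neutral amino acid carriers. In contrast, this held for 3 of 5 in slc6, the family of neurotransmitter and epithelial amino acid carriers, 4 of 9 in slc2, the facilitative sugar carriers, 1 of 6 in slc4, the bicarbonate family (slc4a1ap, no carrier, among them), and 2 of 5 in slc26, the anion exchangers. The vesicular GABA carrier slc32a1, the intestinal peptide carrier slc15a1b, the urea carrier slc14a2 and the sulfate carriers slc13a1 and slc26a1 were above the tag controls on 0 of 8 arrays. The red cell anion exchanger slc4a1a passed them on 3 arrays and the liver and islet glucose carrier slc2a2 on 2.

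The members with bright probe sets in the control pool came from several classes. The cationic amino acid carrier slc7a1b, which takes up arginine and lysine, read 11.95. The lactate carrier slc16a3b (MCT4 in mammals) read 10.57, the ATP-magnesium and phosphate carrier slc25a25a 10.27 and the mitochondrial phosphate carrier slc25a3b 10.23. The aspartate and glutamate carrier slc25a12 read 9.16, the citrate carrier slc25a1a 9.10 and the haem carrier slc48a1b 9.29. The carrier slc25a4, an ADP and ATP exchanger of muscle in mammals, read 4.84 and passed the tag controls on 1 of 8 arrays. The plot of control levels by transport class shows this spread.

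**Figure D1:**
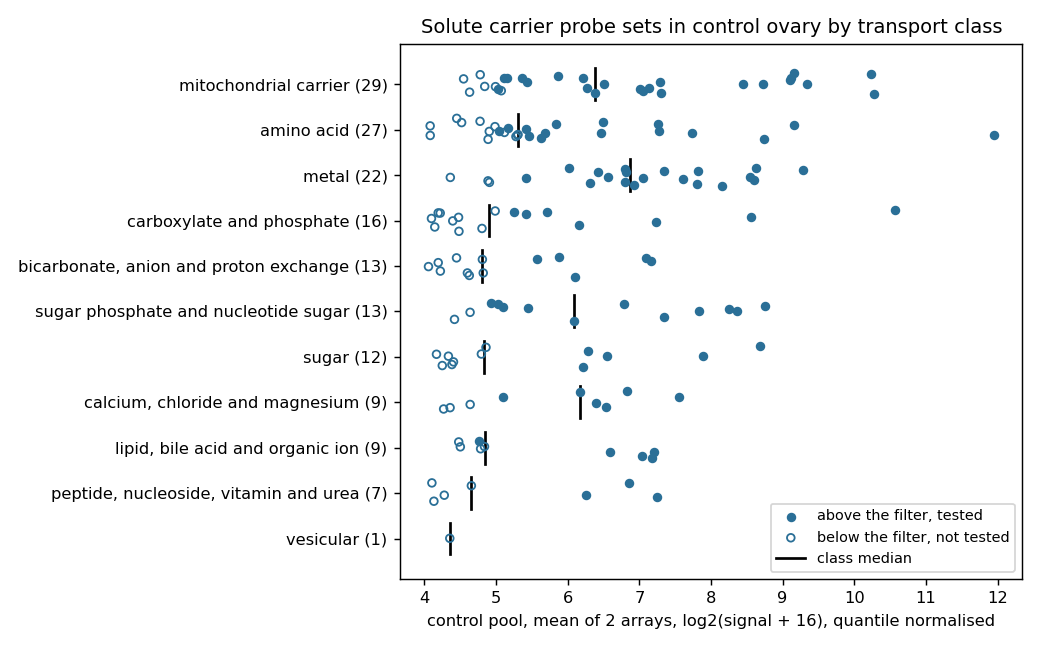
Level of each of the 158 solute carrier probe sets in control ovary, as the mean of 2 arrays on the normalised log2(signal + 16) scale (x axis), by transport class with its number of probe sets (y axis). Filled points passed the filter on dim probe sets, open points did not, and vertical lines mark class medians. The median was 6.38 for mitochondrial carriers and 6.87 for metal carriers, and probe sets of slc7a1b and slc16a3b lie above 10.

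The filter on dim probe sets (mean over all arrays above 5.11) left 99 of the 158 members for testing, 23 of them in slc25 and 76 outside it. A member was called where limma's adjusted p over all 9301 tested probe sets was under 0.05 and the log2 difference was at least 1 in size. At 10 ppb 0 of 99 members were called, against 1.11% of all tested probe sets. At 40 ppb it was 0 of 99, against 0.344%. At 100 ppb 2 of 99 were lower and 0 higher, against 1.25% of all, 0.946% lower and 0.301% higher. These shares are near those of all probe sets. On the adjusted p alone, 2 members passed at 10 ppb (slc25a55a lower and slc16a3b higher), against 2.43% of all, the same 2 at 40 ppb, against 0.613%, and 6 at 100 ppb, against 5.17%. At an unadjusted p under 0.05 limma's array fit had 17 members at 10 ppb (17.2%, against 15.0% of all), 8 at 40 ppb (8.08%, against 11.7%) and 22 at 100 ppb (22.2%, against 23.2%).

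Both exposed arrays lay on 1 side of both control arrays for 40 members at 10 ppb (40.4%, against 41.5% of all tested probe sets), 41 at 40 ppb (41.4%, against 47.8%) and 60 at 100 ppb (60.6%, against 58.4%). At 100 ppb 29 lay above and 31 below, or 29.3% and 31.3%, against 29.5% and 28.9% of all.

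The members' differences were small and centred near 0. Their medians were -0.01 at 10 ppb, 0.02 at 40 ppb and 0.02 at 100 ppb, beside -0.02, 0.01 and 0.00 for all tested probe sets. Differences under 0.5 in size made up 92 of 99 at 10 ppb (92.9%, against 93% of all tested probe sets). At 40 ppb it was 91 (91.9%, against 95.4%) and at 100 ppb 83 (83.8%, against 89.3%), so members passed 0.5 somewhat more often at these 2 doses. The 95% interval of a member's difference had a median half-width of 0.36, from array spread alone. It lay wholly within 1 on either side of 0 for 91 members at 10 ppb, 92 at 40 ppb and 89 at 100 ppb, against 94.8%, 96.0% and 92.3% of all tested probe sets.

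**Figure D2:**
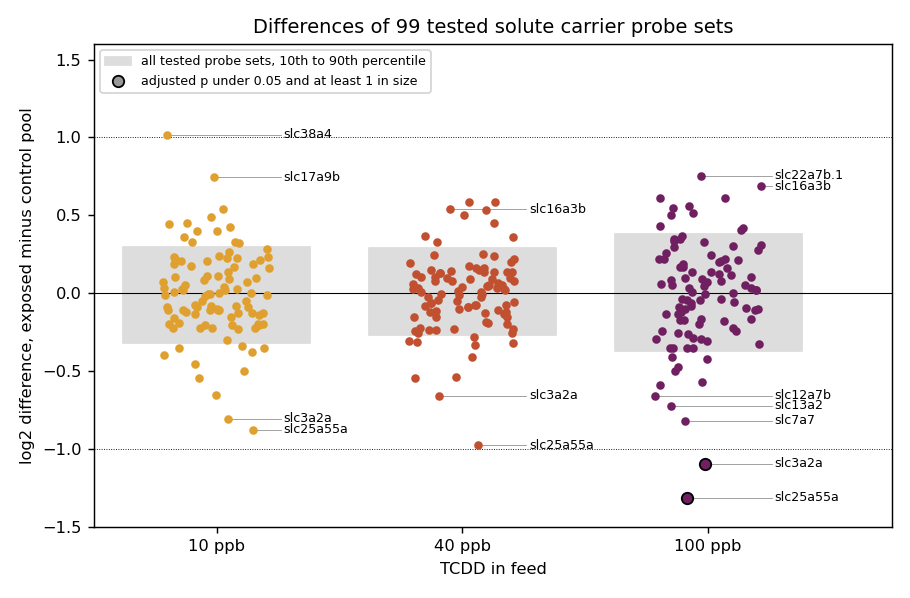
Log2 difference of each of the 99 tested solute carrier probe sets (y axis) from the control pool at 10, 40 and 100 ppb TCDD (x axis). Grey bands hold the 10th to 90th percentile of all 9301 tested probe sets, dotted lines mark 1 on either side of 0, and ringed points were called. The ringed points are slc25a55a at -1.31 and slc3a2a at -1.10, both at 100 ppb.

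The gene with the lowest value at all 3 doses was slc25a55a, a mitochondrial carrier that the RefSeq gene table also lists as slc25a22, the name of a glutamate carrier in mammals. Its levels were 7.08 and 7.03 in the control pool, 6.11 and 6.25 in the 10 ppb pool, 6.06 and 6.09 in the 40 ppb pool, and 5.87 and 5.61 in the 100 ppb pool. All 6 exposed arrays lay below both control arrays, and both 100 ppb arrays below the other exposed ones. In deposited signal it read 54.8 and 24.6 at 100 ppb, against 190.3 and 82.2 in control ovary. The gene fell at 100 ppb by 1.31 ± 0.15 (SE, 2.48-fold lower, limma's adjusted p = 0.00136).

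At the lower doses slc25a55a differed by -0.88 at 10 ppb (1.83-fold lower, adjusted p = 0.0140) and -0.98 at 40 ppb (1.97-fold lower, adjusted p = 0.0205), by limma and short of the minimum difference of 1. Both passes of the adjusted p depended on the setting. In the deposited scaling neither held, with differences of -1.22 and -0.90. With only the compared pools limma's adjusted p was 0.0833 at 10 ppb and 0.00964 at 40 ppb. With no filter on dim probe sets it was 0.0368 and 0.0517. With day as a block it was 0.00498 at 40 ppb. The 10 ppb arm of that fit is replicate 2 alone, with a difference of -0.76. Between arrays scanned on the same day the 100 ppb difference was -1.20 for replicates 1 and -1.42 for replicates 2. The 40 ppb difference was -1.01 and -0.94 in those pairs. The 10 ppb difference was -0.78 for replicates 2, since replicate 1 of that pool was scanned alone on another day. In each fit without 1 array the gene was still called at 100 ppb, with differences of -1.43 to -1.20 and limma's adjusted p of 0.000327 to 0.0278. Without a control or a 100 ppb array, 1 arm of that comparison is a lone array, assumed to vary like those of the other pools. In the deposited scaling the difference was -1.41 and limma's adjusted p 1, and with a pseudocount of 64 it was -0.83, under the minimum difference. The paralog slc25a55b, not tested, read 4.92 at 10 ppb, 4.97 at 40 ppb and 5.31 at 100 ppb, against 4.99 in the control pool.

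The other 22 tested slc25 probe sets were not called. At 100 ppb those of slc25a44b and slc25a44a, carriers of branched-chain amino acids in mammals, differed by 0.55 ± 0.17 and 0.50 ± 0.16 (limma's adjusted p = 0.0837 and 0.100). The levels of slc25a44a were 5.75 and 5.99 in the control pool, 5.57 and 5.73 in the 10 ppb pool, 6.05 and 5.89 in the 40 ppb pool, and 6.45 and 6.30 in the 100 ppb pool. Both 100 ppb arrays of slc25a44a stood above all other arrays.

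Between exposed pools slc25a44a was higher at 100 than at 10 ppb by 0.73 (limma's adjusted p = 0.0386), and slc25a12 by 0.42 (limma's adjusted p = 0.0484), both under the minimum difference; on the adjusted p alone 3 of 99 members passed for this pair of doses, against 3.57% of all. The mitochondrial iron carrier slc25a37 (mitoferrin) had 5.46 and 5.87 at 10 ppb, against 6.25 and 6.17 in control ovary, a difference of -0.54 (limma's adjusted p = 0.192). It differed by -0.06 at 40 ppb and -0.18 at 100 ppb. Red blood cells use this carrier for haem. Of 7 red blood cell genes measured 2 were tested, ca2 and hbaa1. Both were called lower at 100 ppb, and ca2 at 40 ppb too, where hbaa1 differed by 0.17. Over all tested probe sets 0.946% were called lower at 100 ppb, and 0.344% were called either way at 40 ppb. At 10 ppb neither was called: ca2 differed by -0.89 (limma's adjusted p = 0.0218), under the minimum difference, and hbaa1 by 0.12. The summed deposited signal of that list, not normalised, was 374 to 395 at 10 ppb, against 351 to 695 in control ovary. The part of red blood cells in the slc25a37 value was not tested. The oxoglutarate carrier slc25a11 had 2 probe sets, at -0.41 and -0.29 at 100 ppb.

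Several carriers of central metabolism moved little. At 100 ppb the phosphate carrier slc25a3b differed by 0.09, the citrate carrier slc25a1a by -0.17, the acylcarnitine carrier slc25a20 by 0.24 and slc25a25a by -0.04, and none passed. The glutathione carrier gene slc25a39 had 2 probe sets at 0.02 and 0.08. The slc25 medians were -0.11 at 10 ppb, -0.06 at 40 ppb and 0.02 at 100 ppb. Among genes that import carriers into mitochondria (tomm and timm genes), 0 of 9 tested were called at any dose. Over all tested probe sets 1.11%, 0.344% and 1.25% were called at 10, 40 and 100 ppb, so 0 of 9 is near those shares.

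**Figure D3:**
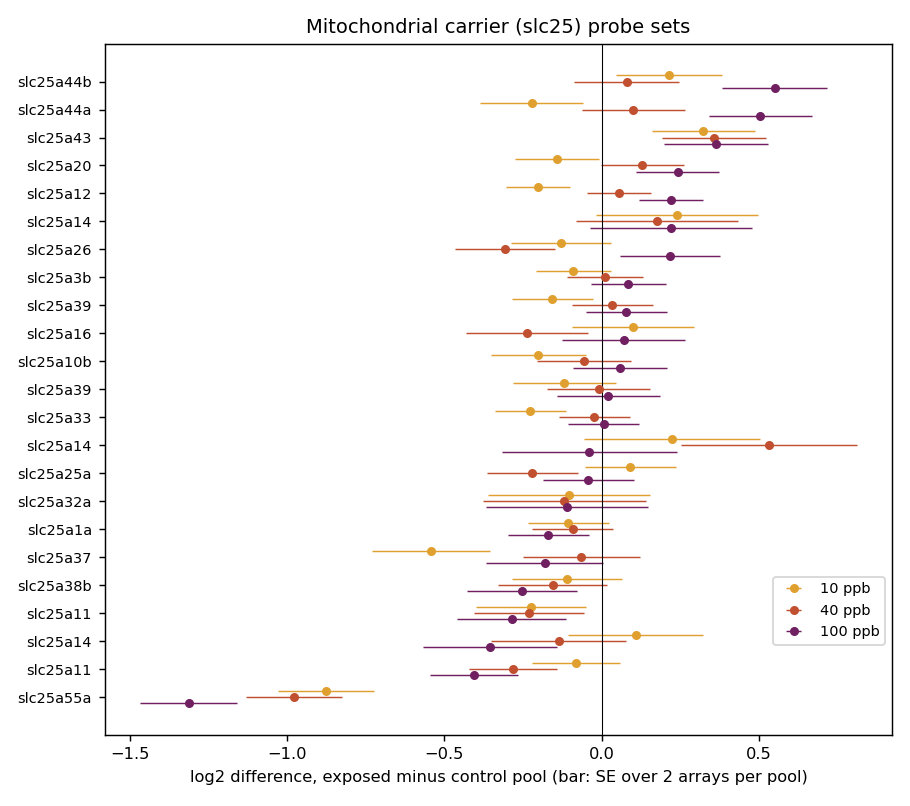
Log2 difference from the control pool (x axis) of the 23 tested slc25 probe sets (y axis, 1 row per probe set, so a gene name can repeat), at 10, 40 and 100 ppb, with bars for the SE over 2 arrays per pool. The row of slc25a55a stands lowest at -0.88, -0.98 and -1.31, and the others lie between -0.54 and 0.55.

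Lactate and related acids leave or enter cells through slc16 carriers. The probe set of slc16a3b had 10.52 and 10.61 in the control pool, 10.96 and 10.97 in the 10 ppb pool, 11.17 and 11.04 in the 40 ppb pool, and 11.27 and 11.24 in the 100 ppb pool. The arrays of each pool lay above those of every lower dose. The differences were 0.40, 0.54 and 0.69 ± 0.09 (SE, the same at each dose), or 1.32-fold, 1.45-fold and 1.61-fold, with limma's adjusted p of 0.0413, 0.0242 and 0.00194, and were under the minimum difference. In deposited signal it read 3234 and 1950 at 100 ppb, against 2070 and 1020 in control ovary. Its glycoprotein partner bsg, which escorts lactate carriers to the membrane, differed by 0.06, 0.11 and 0.12 and was not called. The related slc16a1b differed by 0.07, -0.07 and 0.20.

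In the same transport class the kidney and gut dicarboxylate carrier gene slc13a2 had 5.49 and 5.37 at 100 ppb, against 6.23 and 6.08 in control ovary. Both 100 ppb arrays were below both control arrays, and the difference was -0.72 ± 0.18 (limma's adjusted p = 0.0480), under the minimum difference. The phosphate carrier slc34a2b differed by -0.59 at 100 ppb (limma's adjusted p = 0.0808) and slc20a1b by -0.12. The vesicular nucleotide carrier slc17a9b differed by 0.74 at 10 ppb, 0.59 at 40 ppb and 0.31 at 100 ppb, and none of these passed. Its control arrays lay apart, at 6.97 and 7.50, and a second probe set of the gene read near the floor at 4.10.

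Amino acid carriers of the heteromeric type pair a heavy chain of slc3 with a light chain of slc7. The heavy chain gene slc3a2a (CD98) had 6.34 and 6.58 in the control pool, 5.16 and 6.15 in the 10 ppb pool, 5.82 and 5.79 in the 40 ppb pool, and 5.55 and 5.18 in the 100 ppb pool. All exposed arrays lay below both control arrays, and the 10 ppb arrays were far apart. The gene fell at 100 ppb, with a difference of -1.10 ± 0.28 (2.14-fold lower, limma's adjusted p = 0.0497) and differed by -0.81 and -0.66 at the lower doses, where it did not pass. The same-day difference at 100 ppb was -0.79 for replicates 1 and -1.40 for replicates 2.

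The slc3a2a call depended on the setting. It ended without either control array, either 40 ppb array or either 100 ppb array (limma's adjusted p 0.0902 to 0.319), with no filter on dim probe sets (0.0874), with a pseudocount of 1 (0.0582) and in the deposited scaling (1), and with a pseudocount of 64 the difference was -0.61. It passed at a lower limma's adjusted p with day as a block (0.00234), with only the compared pools (0.00426), without 10 ppb replicate 1 (0.00248) or 2 (0.00276), and with both left out (-1.12, 0.00253). Day as a block sets 10 ppb replicate 1 apart as the only array of its day, so it overlaps with leaving that array out. The second heavy chain gene slc3a2b differed by -0.34 at 10 ppb, -0.20 at 40 ppb and -0.35 at 100 ppb, and was not called. A list of genes for carrier partners and trafficking includes slc3a2a and slc3a2b themselves. Of its 8 tested genes the 1 called at 100 ppb was slc3a2a, the same value as above, and 0 were called at 10 or 40 ppb. Over all tested probe sets 1.11%, 0.344% and 1.25% were called at 10, 40 and 100 ppb. A list of 8 is too short to set 0 or 1 against those shares.

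Of the light chains measured, slc7a7, a carrier of cationic and neutral amino acids, had 5.75 and 5.50 in the control pool, 4.73 and 5.82 in the 10 ppb pool, 5.12 and 5.05 in the 40 ppb pool, and 4.69 and 4.92 in the 100 ppb pool. The 40 and 100 ppb arrays lay below both control arrays, and the 10 ppb arrays on both sides. The difference at 100 ppb was -0.82 ± 0.29 (limma's adjusted p = 0.126). The mean of slc7a7 over all arrays was 5.20, near the limit of 5.11 of the filter on dim probe sets. Its control arrays and 10 ppb replicate 2 raised that mean and so helped it to be tested. Its adjusted p takes no account of this. Both probe sets of slc7a8a, a light chain for large neutral amino acids, were under the filter; they differed by -0.44 and -0.54 at 100 ppb and read above the tag controls on neither array there, against both arrays in the control pool.

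Macrophages and other leukocytes express slc3a2 and slc7a7 in mammals. Of 10 leukocyte genes measured 7 were tested, and 2 were called lower at 100 ppb, cpa5 at -2.53 and marco at -1.35. Over all tested probe sets 0.946% were called lower at that dose. The median of the leukocyte list was -0.54. The lysozyme gene lyz lay on the other side, at 0.68 at 100 ppb (limma's adjusted p = 0.0311, under the minimum difference), and was called higher at 10 ppb, at 1.07 (limma's adjusted p = 0.00505). The summed deposited signal of the list, not normalised, was 271 to 416 at 100 ppb, against 458 to 1100 in the control pool, and csf1ra was above the tag controls on neither control array. Their part in the slc3a2a and slc7a7 values was not tested.

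Other amino acid carriers work without a heavy chain. The bright slc7a1b had 12.28 and 12.32 at 100 ppb, against 11.93 and 11.97 in control ovary, a difference of 0.35 ± 0.11 (limma's adjusted p = 0.0831). All exposed arrays of slc7a1b lay above both control arrays. The related slc7a3a differed by 0.59 at 40 ppb and 0.41 at 100 ppb. The sodium-coupled slc38a5b differed by -0.57 at 100 ppb (limma's adjusted p = 0.0652). At 100 ppb 8 of the 15 tested probe sets of the amino acid class (slc7a6os, no carrier, among them) had both arrays below both control arrays and 2 above, beside 28.9% and 29.5% of all tested probe sets.

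At 10 ppb the member with the highest value was slc38a4, a neutral amino acid carrier of liver in mammals. It had 6.88 and 5.48 at 10 ppb, against 5.19 and 5.13 in control ovary. Its arrays at 40 ppb (5.10 and 4.93) and 100 ppb (5.10 and 5.15) lay near the control arrays. The difference at 10 ppb was 1.02 ± 0.34 (limma's adjusted p = 0.180), and 0.35 between the replicate 2 arrays of the shared day. The filter on dim probe sets used the mean over all arrays, with a limit of 5.11. Outside the 10 ppb pool the arrays of slc38a4 read 4.93 to 5.19, around that limit. The high 10 ppb arrays thus helped it to be tested, and its adjusted p takes no account of this. The difference rests on 1 array: it was 0.32 without 10 ppb replicate 1 and 1.74 without 10 ppb replicate 2. In both fits the lone 10 ppb array is assumed to vary like those of the other pools. Most liver markers rose in the same pool, and 10 ppb replicate 1 had the higher of its summed signals. The part of liver RNA in the slc38a4 value was not tested. The liver glucose carrier slc2a2 read 4.63 at 10 ppb, against 4.25 in the control pool, and passed the tag controls on 1 array of each.

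**Figure D4:**
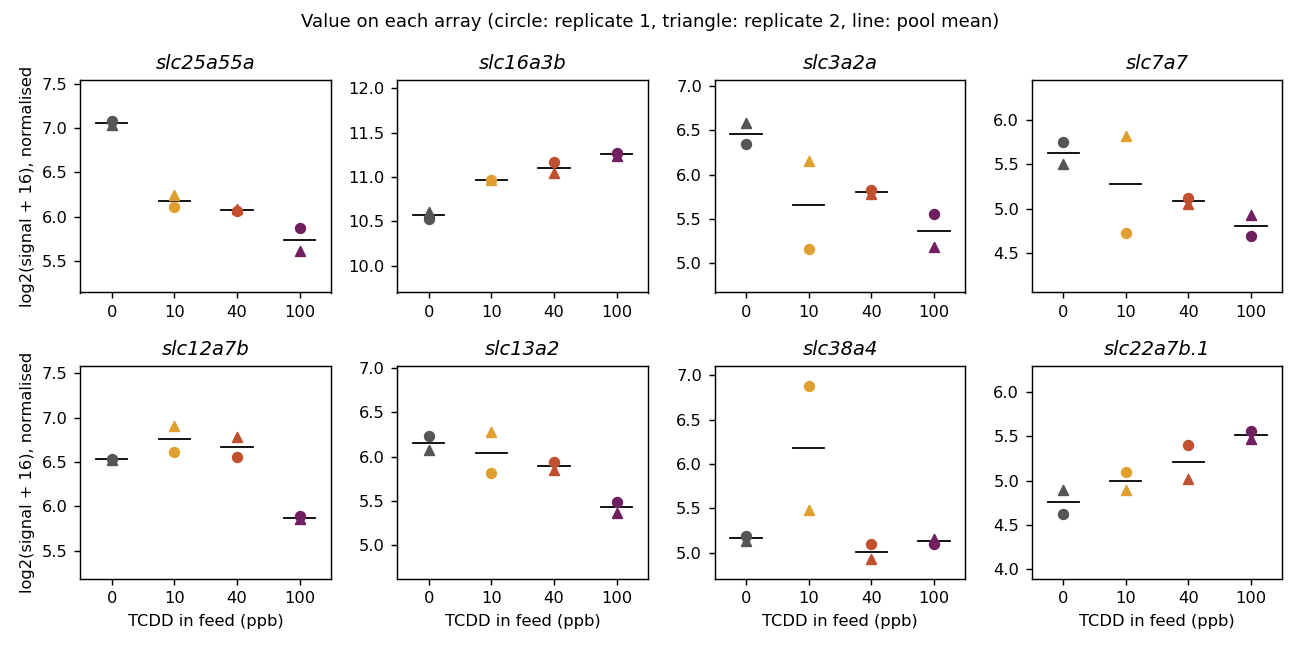
Normalised log2(signal + 16) on each array (y axis) by TCDD in feed (x axis) for 8 solute carriers, with circles for replicate 1, triangles for replicate 2 and lines for pool means. The slc25a55a points sit at 5.61 to 6.25 in the exposed pools and at 7.03 and 7.08 in the control pool, and the 10 ppb points of slc38a4, slc3a2a and slc7a7 lie about 1 or more apart.

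Among ion carriers, the potassium and chloride cotransporter slc12a7b had 6.54 and 6.53 in the control pool, 6.61 and 6.91 in the 10 ppb pool, 6.55 and 6.79 in the 40 ppb pool, and 5.89 and 5.86 in the 100 ppb pool. The 100 ppb arrays lay below all 6 others. The difference was -0.66 ± 0.16 at 100 ppb (limma's adjusted p = 0.0409), under the minimum difference, and 0.23 and 0.14 at 10 and 40 ppb. Between exposed pools slc12a7b was lower at 100 than at 10 ppb by 0.89, as a difference of -0.89 (limma's adjusted p = 0.0137). The anion exchanger slc4a2a differed by -0.50 at 100 ppb in its tested probe set and by -0.30 and -0.28 in its 2 dim ones. The sodium and proton exchangers slc9a7 and slc9a8 differed by -0.33 and -0.08 at 100 ppb, and none of these was called.

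Transport ATPases set the ion gradients that many solute carriers use. Of 37 listed, 27 were measured and 16 tested, and 0 were called at any dose. The sodium pump subunit gene atp1b1a differed by -0.79 at 100 ppb (limma's adjusted p = 0.0125), under the minimum difference, and the medians of the list were -0.08, -0.04 and 0.01 at 10, 40 and 100 ppb. Of 6 tested ABC transporter genes 0 were called. Over all tested probe sets 1.11%, 0.344% and 1.25% were called at 10, 40 and 100 ppb. In lists this short, 0 is near those shares.

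Metal carriers were the class with the most tested members outside slc25, 19 of 22. At any dose 0 were called, against 1.11%, 0.344% and 1.25% of all tested probe sets at 10, 40 and 100 ppb. In a class this small, 0 is near those shares. Their medians were 0.07, 0.11 and 0.09 at 10, 40 and 100 ppb. At 100 ppb the iron carrier slc11a2 (DMT1) differed by 0.00, the iron exporter slc40a1 (ferroportin) by -0.24, and slc48a1b by 0.33 ± 0.10 (limma's adjusted p = 0.0798). The copper carrier slc31a1 had probe sets at 0.33 and -0.04. The zinc carriers slc30a7 and slc39a7 of the secretory pathway differed by 0.10 and, in 2 probe sets, 0.09 and 0.11.

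The class of sugar phosphate and nucleotide sugar carriers, set by family number (slc35 and slc37), held a further set of small differences. At 100 ppb 4 of 11 tested probe sets differed by at least 0.5 upward and 0 downward: slc35d1a by 0.61, slc37a4b by 0.61, slc35f6 by 0.56 and slc35b4 by 0.52, with limma's adjusted p of 0.0719, 0.0943, 0.0602 and 0.0865. A second probe set of slc35f6 differed by 0.22. The glucose 6-phosphate carrier slc37a4b had 5.72 and 5.68 at 100 ppb, against 5.15 and 5.04 in control ovary. Its control arrays lay around 5.11, the limit of the filter on dim probe sets. The high 100 ppb arrays thus helped slc37a4b to be tested and counted among the 4. Its adjusted p takes no account of this. Over all tested probe sets 466 of 9301 differed by at least 0.5 upward and 526 downward. In the other direction slc35e1 had 7.79 and 7.76 at 100 ppb, against 8.32 and 8.18 in control ovary, a difference of -0.47 ± 0.12 (limma's adjusted p = 0.0491). The sulfate donor carrier slc35b2 differed by -0.65 at 10 ppb (limma's adjusted p = 0.112) and -0.24 at 100 ppb.

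The sugar class had 6 of 12 probe sets above the tag controls on both control arrays, 4 of 9 in slc2 and 2 of 3 in slc5. Classes follow the family number, not the substrate of each member. The lipid, bile acid and organic ion class had 6 of 9. The facilitative sugar carrier slc2a15b differed by -0.46, -0.54 and -0.42 at 10, 40 and 100 ppb in 1 probe set and by 0.00, 0.00 and 0.11 in the other, and neither was called. The organic anion carrier slc22a7b.1 (OAT2) had 5.56 and 5.47 at 100 ppb, against 4.63 and 4.90 in control ovary, a difference of 0.75 ± 0.19 (limma's adjusted p = 0.0513). Its signal was 40.2 and 21.3, against 11.3 and 10.3. Both control arrays of slc22a7b.1 lay under 5.11, the limit of the filter on dim probe sets. The high 100 ppb arrays thus helped it to be tested, and its adjusted p takes no account of this. The fatty acid carrier slc27a1a differed by -0.17, the folate carrier slc46a1 by -0.13 and the nucleoside carrier slc29a2 by 0.17 at 100 ppb.

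The 59 members under the filter included 5 above the tag controls on all arrays and 14 on none. At 100 ppb 7 of the 59 (11.9%, against 4.90% of all untested probe sets) read above the tag controls on both control arrays and on neither 100 ppb array, and 0 the other way (0.677% of all untested probe sets). At 40 ppb it was 4 of the 59 (6.78%, against 4.73% of all untested) and at 10 ppb 0 (against 2.31%). They were both probe sets of slc7a8a and those of slc6a19b, slc43a2b, slc16a9a, slc39a3 and slc10a2. As bounds at 100 ppb, slc43a2b was at least 1.45-fold and slc6a19b at least 1.44-fold lower, with no test. The bounds of the others were smaller, from 1.02-fold to 1.27-fold. The 95th percentile of the tag controls itself was 16.2 and 8.90 in signal on the 100 ppb arrays, against 7.10 and 8.58 on the control arrays.

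The same gene was read by more than 1 tested probe set in 12 cases. At 100 ppb the probe sets of 6 of the 12 genes had the same sign, with a median gap of 0.35 and a highest gap of 0.63 (slc12a9). slc25a55a, slc3a2a, slc16a3b, slc7a7, slc12a7b and slc13a2 were each read by 1 probe set.

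With the pool as the sample, limma called 0 of 99 members for the 3 exposed pools against the control pool (0% of all) and 0 for the slope on dose rank (0.0215% of all). At an unadjusted p under 0.05 there were 7 (7.07%, against 7.54% of all) and 12 (12.1%, against 12.2%). The smallest was slc25a55a for exposed against control (limma's adjusted p = 0.648) and slc16a3b for the slope (limma's adjusted p = 0.253). Between exposed pools 0 of 99 members were called, against 0.978% of all for 40 against 10 ppb, 1.59% for 100 against 10 ppb and 0.430% for 100 against 40 ppb, with 6, 20 and 14 members at an unadjusted p under 0.05 (6.06%, 20.2% and 14.1%, against 9.77%, 17.7% and 11.8% of all). With day as a block the 10 ppb arm is replicate 2 alone, since replicate 1 was the only array of its day. The calls of that fit between exposed pools are therefore not given here.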

How the data were processed

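RNA of 5 ovaries per dose was pooled and hybridised on 2 Affymetrix arrays per pool, per the labels' protocols. The deposited intensities are MAS5 signals per the submitters' processing notes, linear values; no source used here gives the MAS5 version or scaling target. Per the file headers, the deposited instrument files hold other information (settings and scan dates), from which arrays were grouped by day of the scan (replicates 1 of the 0, 40 and 100 ppb pools on day 2, that of 10 ppb on day 1, all replicates 2 on day 3).

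The 115 control probe sets among 15617 were dropped; 10795 of the rest had 1 gene symbol, 135 several and 4572 none here. Values were log2(intensity + 16), quantile normalised. Those whose mean exceeded the 40th percentile were tested with limma 3.58.1 in R 4.3.3 (4 pool means over 8 arrays, eBayes with trend, Benjamini-Hochberg over all tested; 4 residual degrees of freedom). Limma was also run on 4 pool means (2 residual degrees of freedom). A probe set counts as detected above the 95th percentile of 17 tag controls. The single control pool and the number of arrays limit the precision. Scripts were tested on simulated data. Members, transport classes and gene lists were chosen with earlier results of these data known. Genes named are called members, the 10 largest differences each way per dose with no overlap with the control arrays, the brightest member per class, well known members and those with several probe sets. A few others (such as slc25a55b, slc16a1b, slc7a3a, slc20a1b, slc9a8, slc46a1 and genes at the tag level) were chosen after their values were seen. No genome was used and no coordinates are given.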

Additional observations from a re-analysis of the deposited data

Results flagged for a closer look

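In 3 members the difference between 2 exposed pools passed limma's adjusted p although the minimum difference of 1 was not reached, all for 100 against 10 ppb: slc12a7b at -0.89, slc25a44a at 0.73 and slc25a12 at 0.42. The effects of these doses against the shared control pool were -0.66 at 100 ppb and 0.23 at 10 ppb for slc12a7b, 0.50 and -0.22 for slc25a44a, and 0.22 and -0.20 for slc25a12. Over all tested probe sets 3.57% passed this way for that pair of doses, beside 3 of 99 members (3.03%). The arrays of the 10 ppb pool were the least alike, and their part in these differences was not tested.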

How the results depend on the processing

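The counts of called members at 10, 40 and 100 ppb and between exposed pools were 0, 0, 2 and 0. At 100 ppb the count was 0 in the deposited scaling, 0 with a pseudocount of 64, 0 with the filter at the 60th percentile (53 members tested, slc25a55a and slc3a2a not among them), 1 with no filter, and 6 with no minimum difference. With a pseudocount of 1 the counts were 1, 1, 3 and 1, and with no minimum difference 2, 2, 6 and 3. Day as a block sets 10 ppb replicate 1 apart as the only array of its day. Its 10 ppb arm is then replicate 2 alone, so its calls between exposed pools are not counted here. Leaving out 1 array at a time gave 0 to 2 members at 10 ppb, 0 at 40 ppb, 1 to 2 at 100 ppb, and 0 to 3 between exposed pools; slc38a4 and slc3a2a were the 2 at 10 ppb without replicate 2 of that pool, and slc12a7b, slc39a9 and slc7a7 the 3 without its replicate 1. The means by which slc38a4 and slc7a7 passed the filter included their high arrays, as stated above. With a replicate block the counts were 0, 0, 2 and 0. Same-numbered arrays of the 0, 40 and 100 ppb pools shared a scan day and deviated together at r = 0.143 to 0.298. Pairs with the 10 ppb pool, whose replicate 1 was scanned on another day, had r = 0.0126 to 0.0464. The numbers thus do not pair all pools, and day as a block gave 0, 0 and 2 at the 3 doses. Leaving out the 10 ppb pool, chosen after seeing the data, gave 0 at 40 ppb and 2 at 100 ppb. The pool fits called 0 members in every alternative run. Of 1013 values of single members under the alternatives, 986 kept their direction and stayed called or uncalled on adjusted p and size together. Outside the setting with no minimum difference, a change in adjusted p alone, short of that difference, was not counted. In the main setting 2 of the values were called, slc25a55a and slc3a2a at 100 ppb, so most of the 986 were uncalled in both settings. The 12 lost calls were of these 2, while 14 values gained a call, 8 of them in the setting with no minimum difference. Only 1 value turned, slc30a5 at 10 ppb, to 0.00 (-0.0018) in the deposited scaling against 0.36. That scaling shifted the median of all tested probe sets by -0.34, 0.14 and -0.07 at the 3 doses. The number of calls over all tested probe sets moved with it, to 64, 4 and 13 beside 103, 32 and 116. The cause of these changes was not tested.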
